A study of Mus musculus with 15 samples.

Results

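The 8 genes described here encode signalling chains and coreceptors of the B cell receptor: *Cd79a*, *Cd79b*, *Cr2*, *Cd81*, *Cd22*, *Cd72*, *Ms4a1* and *Fcer2a*. They were taken by symbol from the 21669 genes of the deposited RNA-seq table, and all 8 of 8 were among the 11299 genes that passed the filter on low values. The study mapped chromatin accessibility over the divisions of B cells that become plasmablasts. With this RNA-seq it asked what changes when EZH2, the enzyme that methylates lysine 27 of histone H3, is inhibited. The RNA-seq table holds 5 groups of 3 libraries from female C57BL/6J mice of 6 to 9 weeks. Naive B cells (nB) were the CD43- fraction of the spleen and were not cultured. Cultured nB were sorted into activated B cells (B220+GL7+CD138-, called actB) and CD138+ plasmablasts (Pb) after they had been kept for 3 days with LPS, IL2 and IL5, and with either 2 μM GSK343, an EZH2 inhibitor, or DMSO, its solvent. For the 3 libraries of Pb with GSK343 the labels name Il6 where the other cultures have Il5, while the treatment protocol and the study's methods give IL5 for all cultures. If that label is right, the drug and this cytokine cannot be told apart in Pb.

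The B cell receptor is a membrane immunoglobulin bound to a heterodimer of CD79A and CD79B, whose cytoplasmic tails carry the tyrosine motifs that the kinases LYN and SYK use. Antigen coated with complement is also bound by CD21, the product of *Cr2*, which with the tetraspanin CD81 is part of a complex that lowers the threshold of signalling. CD22 and CD72 carry inhibitory motifs that recruit the phosphatase SHP-1, CD20 (*Ms4a1*) is a membrane protein linked to calcium entry, and CD23 (*Fcer2a*) is the low affinity receptor for IgE. Plasmablasts turn their immunoglobulin from the membrane to the secreted form and are known to lose much of the naive B cell surface.

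Between 19421830 and 26307413 reads were counted per library, and 3 reads, the limit that a count of 0 allows, equal at most 0.154 RPM (reads per 1000000 reads counted). Levels are given as RPKM, which is RPM per kilobase of the gene. nB replicates 1 and 2 differed by less than the sampling noise (chi-square per degree of freedom 0.00958, against at least 3.58 for all other pairs of one group) and were counted as 1 library, so n = 2 for nB and n = 3 elsewhere. The labels number the libraries 1 to 3 in each group but do not state that they came from separate mice, and p-values measure only the spread between these libraries. Pb carried the transcripts of their label: the 6 plasmablast markers in the table summed to 3083 to 3417 RPKM in Pb and to at most 669 in the other groups. The actB label was less sharply marked. The 5 activated B cell markers summed to 393 to 433 RPKM in actB, to 293 to 340 in Pb and to 99.1 to 114 in nB. nB libraries also held transcripts of other cells. The 7 of 9 listed myeloid markers in the table summed to 194 to 239 RPKM in nB, with *Lyz2* at 152 and 180.4, and to at most 14.1 in the cultured groups, where *S100a8* and *S100a9* had no reads. The 8 T and NK cell markers summed to 25.4 to 28.1 RPKM in nB and to at most 0.689 in culture. The part of these cells in the differences from nB was not tested. In bulk samples, fewer cells of a type and less RNA per cell cannot be told apart.

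All 8 genes were located in an mm9 annotation (GENCODE vM1) that was not the one used for counting. The study mapped reads with the UCSC mm9 Known Gene transcripts and counted them over exons of Entrez genes, so the exons counted can differ. *Cr2* (Entrez 12902) lies at chr1:196963005-197002909, *Ms4a1* (12482) at chr19:11324654-11340669, *Cd22* (12483) at chr7:31650421-31665361, *Fcer2a* (14128) at chr8:3681737-3694174, *Cd72* (12517) at chr4:43459334-43467500 and *Cd79b* (15985) at chr11:106172655-106176076, all on the minus strand. *Cd79a* (12518) at chr7:25682400-25687216 and *Cd81* (12520) at chr7:150238644-150253839 lie on the plus strand. Of the exon bases of *Cd72* in GENCODE vM1, 1423 of 3422 are shared with the oppositely oriented *Tesk1*. Whether the shorter *Cd72* model that was counted holds these bases is not known. No source used here says whether reads were assigned by strand, so reads of these genes may be mixed there. *Tesk1* stood at 19.7 and 25.4 RPKM in nB and between 3.92 and 5.13 in every cultured library. For *Cd81* 30 exon bases are shared with the noncoding gene *R74862*. The gene lengths in the table also differ from this annotation, by the largest ratio for *Cd72* (1715 in the table, 3422 exon bases annotated) and *Ms4a1* (4700 and 2524), which touches comparisons between genes and not those between groups.

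RefSeq promoters (GRCm38.p6) were at hand for 6 of the 8 genes, and 4 are shown because their genes had unlike patterns below. *Cr2* fell mostly on activation, *Fcer2a* fell at each step and, in Pb, with GSK343, *Cd79a* kept the highest level in all groups, and *Cd81* alone was higher in Pb. Each run is the 250 bases before the annotated start, 5′ to 3′ on the gene's strand, and capitals mark matches to the motifs searched on both strands.
Cd79a, chr7:24897247-24897496, plus strand: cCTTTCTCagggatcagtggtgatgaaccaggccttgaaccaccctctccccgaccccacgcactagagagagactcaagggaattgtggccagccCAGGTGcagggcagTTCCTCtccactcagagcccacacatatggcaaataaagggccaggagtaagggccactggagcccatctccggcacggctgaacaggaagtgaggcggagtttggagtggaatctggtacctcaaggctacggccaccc
Cr2, chr1:195176720-195176969, minus strand: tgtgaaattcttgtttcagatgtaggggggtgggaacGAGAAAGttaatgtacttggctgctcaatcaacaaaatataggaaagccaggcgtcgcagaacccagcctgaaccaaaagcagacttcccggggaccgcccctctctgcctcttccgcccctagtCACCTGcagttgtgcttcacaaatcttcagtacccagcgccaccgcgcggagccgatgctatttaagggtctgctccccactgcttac
Cd81, chr7:143052500-143052749, plus strand: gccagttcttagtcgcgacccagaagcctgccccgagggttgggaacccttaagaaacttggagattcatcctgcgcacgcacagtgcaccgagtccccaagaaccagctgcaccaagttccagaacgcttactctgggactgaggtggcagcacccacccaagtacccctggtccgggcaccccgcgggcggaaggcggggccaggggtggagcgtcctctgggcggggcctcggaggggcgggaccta
Fcer2a (first of 3 annotated starts), chr8:3694175-3694424, minus strand: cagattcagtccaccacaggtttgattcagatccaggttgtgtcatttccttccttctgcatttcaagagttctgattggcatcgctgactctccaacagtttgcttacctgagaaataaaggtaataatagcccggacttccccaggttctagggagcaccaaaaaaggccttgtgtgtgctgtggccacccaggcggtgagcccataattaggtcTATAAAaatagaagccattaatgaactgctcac
The motifs were the octamer ATGCAAAT, found in 1.6% of 32851 promoters, the EBF1 core CCCNNGGGA (5.6%), the PU.1 core GAGGAA (23.3%), the E2A E-box CAGGTG (17.2%), the Blimp-1 core GNGAAAG (19.4%) and the TATA box TATAAA (12.4%). *Cd79a* matched the Blimp-1 core, the E-box and the PU.1 core, in that order along the run. The *Cr2* promoter matched the Blimp-1 core, with its nearest base 207 bases before the start, and the E-box, 83 bases before it. *Fcer2a* matched the TATA box 28 bases before its first start, and its second annotated start had 2 E-boxes. None of the 6 motifs was in the *Cd81* window, which had the most CpG (16, against 11 in *Cr2*, 6 in *Cd79a* and 3 in *Fcer2a*). *Cd22*, not shown, matched the EBF1 core and the E-box, and *Cd72* the PU.1 core. A match describes letters only, and binding was not measured here.

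Of the 2 signalling chains, *Cd79a* had the highest level of the 8 genes in each group. It stood at 1221 and 1096 RPKM in nB, at 544, 617 and 555 in actB with DMSO, and at 437, 463 and 428 in Pb with DMSO. With the drug its levels were 519, 567 and 534 RPKM in actB and at 372, 438 and 409 in Pb. nB, actB with DMSO and Pb with DMSO did not overlap, and the DMSO and GSK343 libraries of a cell type did. *Cd79b* stood at 928 and 908 RPKM in nB, at 422, 477 and 439 in actB with DMSO, and at 279, 287 and 272 in Pb with DMSO. In GSK343 cultures it was at 420.0, 456 and 421 RPKM in actB and at 259, 291 and 264 in Pb. Its groups fell in the same order, nB above actB above Pb, with the drug groups overlapping their controls.

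In the CD21 complex, *Cr2* had the widest gap between nB and the cultured cells. It stood at 158 and 168 RPKM in nB, at 8.97, 9.72 and 10.6 in actB with DMSO, and at 7.56, 7.15 and 8.17 in Pb with DMSO. In the presence of GSK343 it stood at 7.08, 8.53 and 8.22 RPKM in actB and at 4.42, 4.23 and 5.47 in Pb. Every GSK343 library lay below every DMSO library of its cell type, and actB with GSK343 overlapped Pb with DMSO. *Cd81* stood at 101 and 96.1 RPKM in nB, at 81.2, 82.1 and 72.5 in actB with DMSO, and at 152, 181 and 156 in Pb with DMSO. Its levels with GSK343 were 74.6, 87.5 and 74.6 RPKM in actB and at 171, 199 and 178 in Pb. Of the 8 genes it alone had its highest levels in Pb and its lowest in actB.

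The inhibitory coreceptors were lowest in Pb. *Cd22* stood at 295 and 299 RPKM in nB, at 205, 258 and 216 in actB with DMSO, and at 18.9, 16.4 and 19.0 in Pb with DMSO. With the inhibitor it was at 206, 255 and 216 RPKM in actB and at 7.55, 17.0 and 11.9 in Pb. *Cd72*, a receptor of the C-type lectin family, stood at 193 and 203 RPKM in nB, at 89.9, 132 and 100.5 in actB with DMSO, and at 15.4, 15.4 and 14.9 in Pb with DMSO. GSK343 cultures had it at 83.2, 127 and 86.9 RPKM in actB and at 9.04, 14.5 and 11.5 in Pb. In Pb the GSK343 libraries of *Cd72* all lay below the DMSO libraries, and those of *Cd22* overlapped them. Replicate 2 was the highest library for both genes in actB with either treatment and in Pb with GSK343.

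*Ms4a1* and *Fcer2a* separated Pb with GSK343 from Pb with DMSO. *Ms4a1* stood at 278 and 307 RPKM in nB, at 194, 190.2 and 212 in actB with DMSO, and at 61.8, 58.9 and 62.0 in Pb with DMSO. With GSK343 the levels were 196, 196 and 228 RPKM in actB and at 31.8, 44.3 and 43.4 in Pb. Its drug groups overlapped in actB and not in Pb. *Fcer2a* stood at 358 and 401 RPKM in nB, at 77.4, 80.9 and 74.7 in actB with DMSO, and at 5.85, 4.84 and 4.70 in Pb with DMSO. With GSK343 it stood at 31.7, 58.8 and 37.2 RPKM in actB and at 0.981, 2.41 and 1.59 in Pb. All 5 groups of *Fcer2a* were apart from each other, and its lowest library rested on 74 reads.

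**Figure D1:**
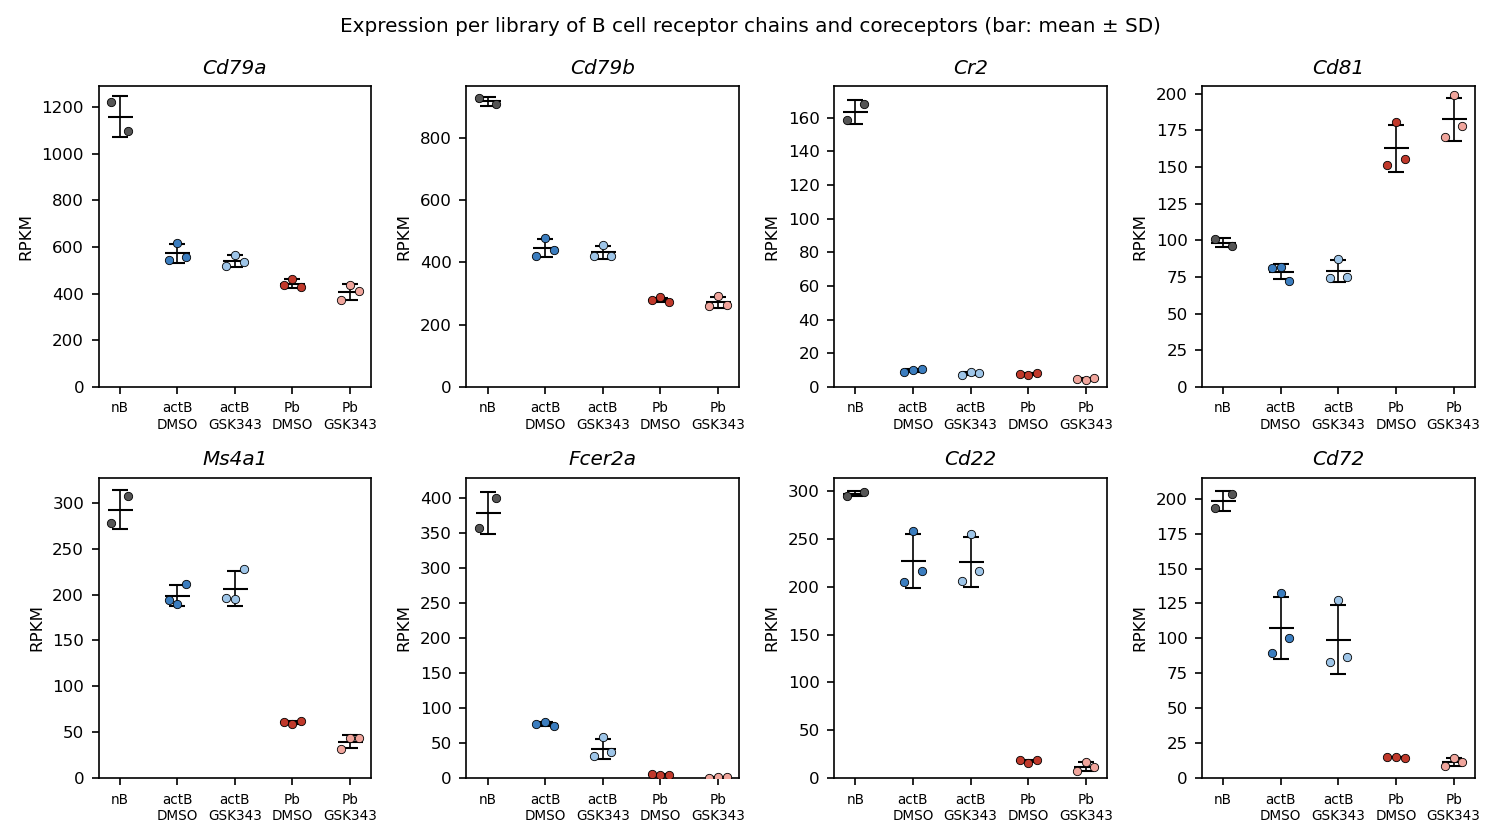
RPKM of the 8 genes (linear axis from 0, 1 panel per gene) in each library of the 5 groups, where points are libraries and bars the mean ± SD. At the same treatment Pb lie below actB for 7 genes and above them for *Cd81*, and the GSK343 libraries lie below the DMSO libraries in Pb for *Cr2*, *Ms4a1*, *Fcer2a* and, narrowly, *Cd72*.

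Set side by side per length, the order of the 8 genes changed between cell types. In nB the order was *Cd79a*, *Cd79b*, *Fcer2a*, *Cd22*, *Ms4a1*, *Cd72*, *Cr2* and *Cd81*, where only *Cd22* and *Ms4a1* overlapped. *Cd81*, the lowest in nB, was the third in Pb with DMSO, after the CD79 chains and before *Ms4a1*. *Fcer2a*, the third in nB, was the lowest in Pb with DMSO at 5.13 ± 0.629 RPKM (SD, n = 3). In actB with DMSO *Cd22* and *Ms4a1* overlapped again, as did *Cd81* and *Fcer2a*, and *Cr2* was the lowest.

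Most of the group was lower in actB than in nB. Against nB, actB with DMSO kept 76.4% of the mean RPKM of *Cd22*, 79.9% of *Cd81*, 67.9% of *Ms4a1*, 54.2% of *Cd72*, 49.4% of *Cd79a*, 48.6% of *Cd79b*, 20.5% of *Fcer2a* and 5.97% of *Cr2*. Of the 8 genes 7 were called lower at an adjusted p under 0.05, in a comparison where 36.3% of all genes tested were called lower and 40.9% higher. The fall of *Cr2* was -4.04 (SE 0.113, adjusted p = 1.13e-11) on the log2(RPKM + 0.25) scale, and only 0.814% of genes had a lower value. *Fcer2a* fell by 2.28 (SE 0.279, adjusted p = 8.39e-06), with 4.3% of genes lower. Both CD79 chains fell alike, *Cd79a* by 1.02 (SE 0.0811) and *Cd79b* by 1.04 (SE 0.0667), and *Cd72* fell by 0.90 (SE 0.209). *Ms4a1* fell by 0.56 (SE 0.123) and *Cd81* by 0.33 (SE 0.0974, adjusted p = 0.00852). *Cd81* was not called when the merged nB library was left out (adjusted p = 0.0646). The value of *Cd22*, -0.40 (SE 0.238, adjusted p = 0.146), did not pass. With the replicate number as a block the call depended on the number given to the merged nB library: as number 1 it passed (-0.49, adjusted p = 0.0389, with 38.6% of all genes called lower), and as number 2 it did not (-0.30, adjusted p = 0.205). It also passed without Pb GSK343 replicate 1 (adjusted p = 0.0274) or 2 (adjusted p = 0.0459). The 6 listed genes of marginal zone B cells, a subset of nB rich in CD21, summed to 116 to 141 RPKM in nB and to 79.5 to 88.1 in actB with DMSO, but not alike: *S1pr3* kept 8.06% of its nB mean, *Myof* 23.4%, *Cd1d1* 26.4%, *Dtx1* 35.4% and *Cd9* 73.2%, while *Plxnd1* stood at 426%. The 5 markers of stromal cells and of follicular dendritic cells, which also carry CD21, summed to 10.9 to 24.0 RPKM in nB and to at most 0.256 in the cultured groups. In nB *Vcam1* stood at 8.63 and 22.7 RPKM, *Clu* at 1.97 and 1.18 and *Cxcl13* at 0.15 and 0.151, and *Vcam1* had no reads in any culture. The part of these cells in the fall of *Cr2* was not tested.

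Between actB and Pb the group changed unevenly. With DMSO, 7 of the 8 genes were lower in Pb and 1, *Cd81*, was higher, where 42.4% of all genes tested were called lower and 27.3% higher. The median of all genes was -0.12 and moved to -0.0048 with each library scaled to its median, which called 3899 genes lower and 3813 higher in place of 4791 and 3086. *Fcer2a* fell by 3.86 (SE 0.25, adjusted p = 3.19e-08), and ranked 2 from the lowest of 11299. *Cd22* fell by 3.62 (SE 0.212, adjusted p = 1.33e-08) and ranked 8 from the lowest, and *Cd72* fell by 2.78 (SE 0.187) and ranked 86. *Tesk1*, which overlaps *Cd72*, rose by 0.22 in the same comparison (adjusted p = 0.0386). *Ms4a1* fell by 1.70 (SE 0.110) to 30.7% of its actB level. The CD79 chains fell less, *Cd79b* by 0.67 (SE 0.0596, adjusted p = 6.00e-07) and *Cd79a* by 0.37 (SE 0.0725, adjusted p = 0.000606). *Cr2*, already low in actB, fell by 0.34 (SE 0.101, adjusted p = 0.00894), which was not called with median scaling (adjusted p = 0.0553) or quantile normalization (adjusted p = 0.0992). *Cd81* rose by 1.05 (SE 0.0871, adjusted p = 3.36e-07), to 2.07 times its actB mean, and 92.1% of genes had a lower value.

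Over the whole path from nB to Pb with DMSO the same genes stood as follows. *Fcer2a* kept 1.35% of its nB mean, a log2 fold change of -6.14 (SE 0.279, adjusted p = 3.91e-10), *Cr2* 4.67%, *Cd22* 6.1%, *Cd72* 7.68%, *Ms4a1* 20.8%, *Cd79b* 30.4% and *Cd79a* 38.2%. *Cd81* reached 165% (log2 fold change 0.72, SE 0.0974, adjusted p = 1.69e-05). All 7 lower genes and the higher one passed the test, where 41.1% of all genes were called lower and 39.5% higher, and the 3 comparisons share their libraries. *Cr2* and *Cd22* ended near each other by different steps: *Cr2* was 16.8-fold lower in actB than in nB and 1.28-fold lower in Pb than in actB, whereas *Cd22* was 1.31-fold and 12.5-fold lower.

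**Figure D2:**
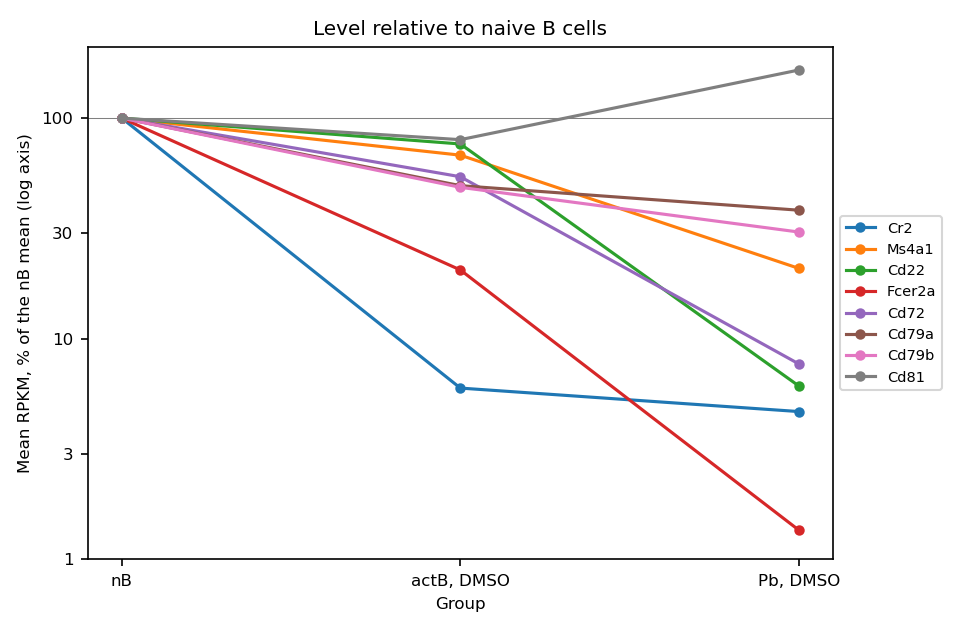
Mean RPKM of each gene as a percent of its nB mean (log axis) in nB, actB with DMSO and Pb with DMSO, with 1 line per gene. *Cr2* drops to 5.97% in actB, *Fcer2a* reaches 1.35% in Pb, and *Cd81* ends at 165%.

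CD79A and CD79B pair in the receptor, and the ratio of their RPKM within a library does not depend on how libraries are scaled. *Cd79b* over *Cd79a* was 0.76 and 0.829 in nB, 0.775, 0.772 and 0.791 in actB with DMSO, and 0.639, 0.619 and 0.635 in Pb with DMSO. With GSK343 it was 0.810, 0.803 and 0.789 in actB and 0.696, 0.665 and 0.644 in Pb. The Pb libraries with DMSO all lay below the actB libraries, a log2 difference of -0.30 (exact two-sided permutation test p = 0.1, the smallest that 3 against 3 allows, and 0.25 after adjustment over 5 comparisons). All 3 Pb libraries with GSK343 lay above the 3 with DMSO, by 0.08 on the log2 scale (exact p = 0.1, adjusted 0.25). The exact p was 0.2 for Pb against nB and for GSK343 in actB, and 0.8 for actB against nB, and 3 against 2 cannot go below 0.2.

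**Figure D3:**
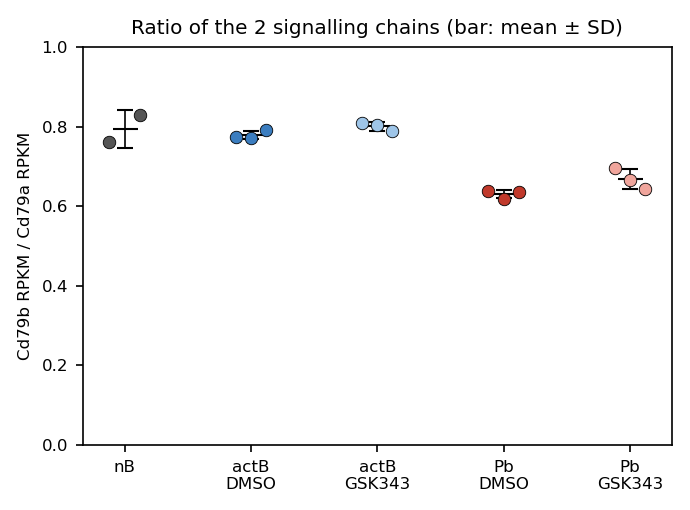
Ratio of *Cd79b* to *Cd79a* RPKM (no unit, axis from 0 to 1) in each library of the 5 groups, where points are libraries and bars the mean ± SD. The nB and actB libraries lie between 0.76 and 0.829 and the Pb libraries between 0.619 and 0.696.

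GSK343 was first compared with DMSO in actB. *Ezh2* itself, the drug's target, stood at 101 ± 6.26 RPKM with DMSO and 120.4 ± 12.4 with GSK343 (adjusted p = 0.0705), and its transcript does not report the enzyme's activity. *Fcer2a* was lower with GSK343, at 54.8% of its DMSO mean, a log2 fold change of -0.91 (SE 0.25, adjusted p = 0.0373), and all 3 GSK343 libraries lay below all 3 DMSO libraries, as they did for 7.52% of all genes. It was the 1 gene of 8 called, where 2.16% of all genes tested were called lower and 8.2% higher (244 and 926 genes, or 370 and 690 with median scaling), and it ranked 26 from the lowest. The call of *Fcer2a* was lost with a pseudocount of 0.05 (adjusted p = 0.0515), without the filter (adjusted p = 0.0683), with the compared groups alone (adjusted p = 0.0909), and without any 1 of the 3 actB DMSO libraries, actB GSK343 replicates 1 and 3, both nB libraries and Pb GSK343 replicate 3. Over all alternatives its adjusted p ranged from 0.000127 to 0.133. *Cr2* had a log2 fold change of -0.29 (SE 0.101, adjusted p = 0.0918) with groups that did not overlap, and it passed with the replicate block, with the merged nB library as number 1 (adjusted p = 0.0181, with 6.71% of all genes called lower) or 2 (adjusted p = 0.0217), and in edgeR (adjusted p = 0.0440, with 3.81%). The 95% confidence intervals of the others were -0.24 to 0.08 for *Cd79a*, -0.17 to 0.09 for *Cd79b*, -0.19 to 0.19 for *Cd81*, -0.19 to 0.29 for *Ms4a1*, -0.53 to 0.28 for *Cd72* and -0.47 to 0.46 for *Cd22*. The 7 myeloid markers, which summed to 4.12 to 5.44 RPKM in actB with DMSO, summed to 8.31 to 14.1 with GSK343, nearly all of it *Itgam* (3.50 to 4.66 and 6.60 to 12.8), while *Lyz2* reached at most 1.13 and *S100a8* and *S100a9* had no reads. Their part in these values was not tested.

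In Pb, *Fcer2a*, *Cr2* and *Ms4a1* were lower with GSK343, each with all 3 GSK343 libraries below all 3 DMSO libraries, as for 15.3% of all genes. These were 3 of the 8 genes called, and 5% of all genes tested were called lower and 7.9% higher. *Fcer2a* fell by 1.56 (SE 0.25, adjusted p = 0.00217), to 32.3% of its DMSO mean, and ranked 7 from the lowest of 11299. *Cr2* fell by 0.67 (SE 0.101, adjusted p = 0.00149), to 61.7%, and *Ms4a1* fell by 0.63 (SE 0.110, adjusted p = 0.00369), to 65.4%. *Cd22* had as large a log2 fold change as *Ms4a1*, -0.63 (SE 0.212, adjusted p = 0.0722), and did not pass. Its replicate 2 library, at 17.0 RPKM, lay within the DMSO range, and without that library the value was -0.91 (adjusted p = 0.00606). Without GSK343 replicate 1, the lowest library, it was -0.33 (adjusted p = 0.213). *Cd72* (-0.40, adjusted p = 0.195, groups not overlapping) and *Cd81* (0.17, adjusted p = 0.251) did not pass either, and *Cd72* was at -0.23 (adjusted p = 0.535) without GSK343 replicate 1. In the fit blocked on replicate number, with the merged nB library as number 1, 6 of 8 genes passed, *Cd22* (adjusted p = 0.0229) and *Cd72* (0.0168) lower and *Cd81* (0.0242) higher beside the first 3, where 10.9% of all genes were called lower and 13.7% higher. With that library as number 2 the adjusted p was 0.0313 for *Cd22*, 0.0426 for *Cd72* and 0.0430 for *Cd81*. The 95% confidence intervals of the CD79 chains were -0.28 to 0.03 for *Cd79a* and -0.17 to 0.09 for *Cd79b*.

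Other transcripts differed between these Pb libraries as well. *Sdc1*, which encodes CD138, on which Pb were sorted, stood at 28.8, 30.4 and 29.8 RPKM with DMSO and at 58.8, 53.3 and 53.7 with GSK343. The 5 activated B cell markers together summed to 314 to 340 RPKM with DMSO and to 293 to 318 with GSK343, and the 6 naive and activated B cell markers to 1677 to 1739 and to 1426 to 1701, with none at 0. Within Pb with GSK343, replicate 2 was the highest library for *Pax5* (18.6 RPKM, against 9.28 and 13.6), *Fcer2a*, *Cd22* and *Cd72*. The same library was also the highest for *Ms4a1*, *Cd79a*, *Cd79b* and *Cd81* (199 RPKM, against 171 and 178), of which *Cd81* is higher in Pb than in actB. For *Cr2* it was the lowest (4.23 RPKM, against 4.42 and 5.47). The part of actB transcripts left in the CD138+ gate in these differences was not tested.

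**Figure D4:**
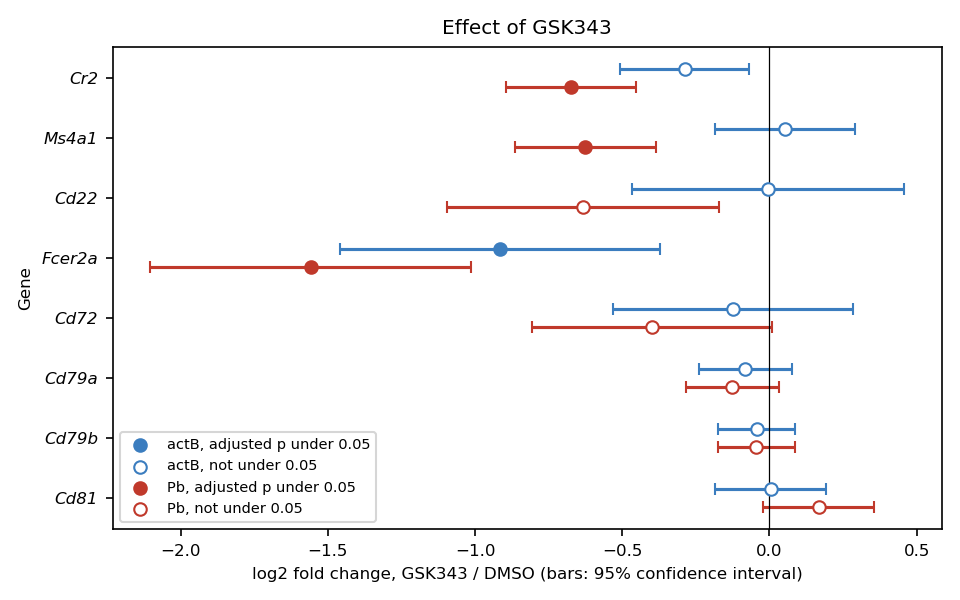
Log2 fold change of GSK343 against DMSO for the 8 genes in actB (blue) and Pb (red), with 95% confidence intervals and filled points for an adjusted p under 0.05. *Fcer2a* is lowest in both cell types, at -0.91 and -1.56, *Cr2* and *Ms4a1* are also filled in Pb, and both CD79 chains cross 0 in each.

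A call in one cell type and not in the other does not show a difference, so the difference of the effects was tested as an interaction term. None of the 8 genes was called by limma, where 0.248% of all genes were called in either direction and 1017 genes had an unadjusted p under 0.05. *Ms4a1* came nearest, with a GSK343 effect 0.68 lower in Pb than in actB on the log2 scale (-0.68, SE 0.155, unadjusted p = 0.000901, adjusted p = 0.124), and *Cr2* (-0.39) was the other of the 8 with an unadjusted p under 0.05 (0.0188). *Ms4a1* passed with the replicate block, with the merged nB library as number 1 (adjusted p = 0.0302, with 1.29% of all genes called lower) or 2 (adjusted p = 0.0447), and edgeR called none of the 8 without the block and *Ms4a1* and *Cr2* with it. For *Fcer2a* the difference was -0.64 (95% confidence interval -1.41 to 0.12), and -0.36 without Pb GSK343 replicate 1 or -0.39 without actB GSK343 replicate 2, so its lower value in Pb was not shown to differ from that in actB.

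The signalling genes behind these receptors were read from lists of 19 proximal kinases and adaptors, 23 downstream genes, 15 phosphatases and negative regulators, 24 other surface coreceptors and 15 B cell transcription factors, all of which were tested. From nB to actB, 16 proximal genes fell and 1 rose, 16 downstream genes fell and 4 rose, 12 phosphatases fell and 1 rose, 20 coreceptors fell and 3 rose, and 11 transcription factors fell and 4 rose, where 36.3% of all genes were called lower and 40.9% higher. The Src family kinase *Blk* fell by 2.13 and the coreceptor *Cd5* by 2.98, and the Fc receptor homolog *Fcrl5* rose by 2.38 and the inhibitory Fc receptor *Fcgr2b* by 1.30. *Fgr*, a Src family kinase that myeloid cells also express, fell by 3.55, beside the fall of the myeloid markers given above. *Cd5*, which T cells also express, stood at 2.92 and 3.06 RPKM in nB, beside *Cd3e* at 2.69 and 2.58 and *Cd3g* at 3.44 and 4.31, and all 3 were at most 0.391 in the cultured groups. The part of T and myeloid cells in these falls was not tested.

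From actB to Pb with DMSO, 17 of the 24 coreceptors fell and 4 rose, with a median of -1.21 beside -1.19 for the 8 genes and -0.12 for all genes, of which 42.4% were called lower and 27.3% higher. *Pirb*, an inhibitory receptor, fell by 3.81 and *Ms4a6b*, of the CD20 family, by 3.22, and the listed tetraspanins, relatives of *Cd81*, went both ways. *Cd9* and *Cd151* rose by 1.64 and 0.86, whereas *Cd37* fell by 2.24, *Cd53* by 0.36 and *Cd82* by 0.32. Of the proximal genes 13 fell and 4 rose (median -0.70). *Pik3ap1* and *Bank1*, adaptors of the receptor, fell by 2.45 and 2.31, and *Blnk*, the adaptor that SYK phosphorylates, rose by 0.49. Downstream, 10 of 23 fell and 4 rose (median -0.12, near that of all genes), with the protein kinase C gene *Prkcb* falling by 1.91 and the calcium channel *Itpr1* by 2.38. Among phosphatases 8 fell and 6 rose, and *Ptpn6*, which encodes the SHP-1 that CD22 and CD72 recruit, fell by 1.71 (SE 0.0657). Of the transcription factors 12 fell and 1 rose: *Spib* fell by 3.38 and *Pax5*, an activator of *Cd79a*, by 2.72, and the coactivator *Pou2af1* rose by 1.28. Of 12 listed symbols of immunoglobulin chains and assembly 6 were among the symbols used. None of these was a heavy or light chain, so transcripts of the receptor's own immunoglobulin were not read here. All 6 rose, among them *Jchain*, the joining chain of secreted IgM, by 3.24.

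Under GSK343 the called genes of the pathway lists went both ways in Pb, and all but 1 of them rose in actB. In Pb 3 proximal genes rose and 5 fell, 5 downstream genes rose and 5 fell, 4 coreceptors rose and 4 fell, 1 phosphatase fell, and 1 transcription factor rose and 5 fell, where 5% of all genes were called lower and 7.9% higher. The kinase *Fyn* rose by 0.78, *Bank1* fell by 1.28 (adjusted p = 0.000227), *Pax5* fell by 1.11 (adjusted p = 0.0022), *Ebf1* fell by 0.60 and *Fcrl1* fell by 0.82. In actB 6 proximal genes, 4 downstream genes, 3 phosphatases, 3 coreceptors and 1 transcription factor rose, and of these lists 1 gene fell, *Fcrl1*, by 0.40 (adjusted p = 0.0209). Of all genes 8.2% were called higher there and 2.16% lower, or 690 and 370 genes with median scaling in place of 926 and 244. *Fgr* rose by 1.24 in actB, beside *Itgam* given above, and *Ifitm1*, an interferon-induced protein of the cell membrane, rose by 2.24. The difference between the cell types was called for *Bank1* (-1.23, adjusted p = 0.0328), *Lat2* (-0.79), *Fcrl5* (-0.75), *Ptpn22* (-0.50) and *Cd180* (0.55). With each library left out in turn, this difference was called for 0 to 9 genes of the lists. Of all genes it was called for 0 to 58, against 28 in the main fit.

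**Figure D5:**
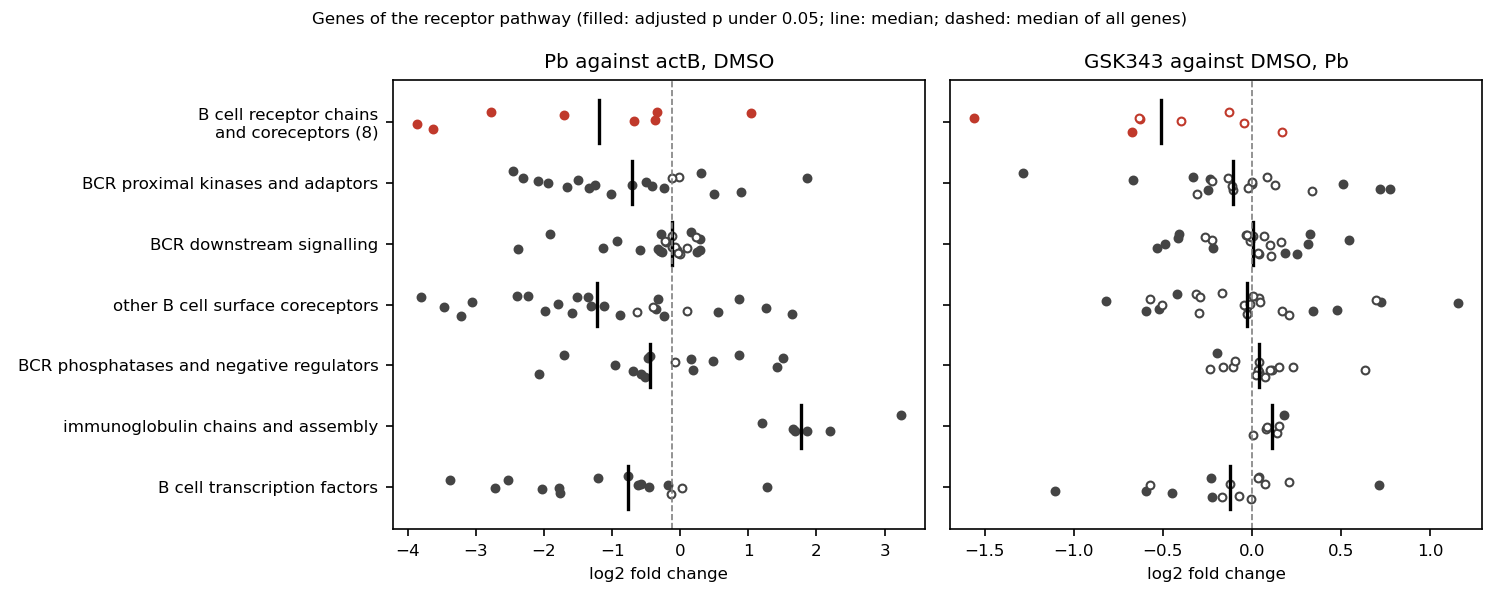
Log2 fold change of the 8 genes (red) and of the genes of 6 pathway lists (grey) for Pb against actB with DMSO (left) and for GSK343 against DMSO in Pb (right), with filled points for an adjusted p under 0.05, a line at each list's median and a dashed line at the median of all genes. On the left the 8 genes have a median of -1.19 and the other coreceptors -1.21, and on the right -0.51 and -0.03.

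Over the 14 libraries, which fall into nB, actB and Pb, the 8 genes formed no single pattern. Pearson's r of log2(RPKM + 0.25) is given as a description, since the libraries share groups. *Ms4a1*, *Cd22*, *Cd72* and *Fcer2a* went together (r from 0.947 to 0.988), and *Cr2* was closest to *Cd79a* (r = 0.959) and less close to *Cd22* (r = 0.553). *Cd81* ran against *Cd22* (r = -0.934) and *Ms4a1* (r = -0.914). Among all genes tested, those with the most similar profile were *Rrm2b* and *Akap8l* for *Cr2* (r = 0.993 each), *Pax5* and *Lcp1* for *Ms4a1* (0.995 each), *Cnpy3* (0.998) and *Samd9l* (0.997) for *Cd22*, and *Fcrl1* (0.996) and *Zcchc2* (0.995) for *Fcer2a*. They were *Herc3* and *Zbtb18* for *Cd72* (0.998 each), *Cd74* (0.996) and *Irf2bpl* (0.994) for *Cd79a*, *Tk2* (0.996) and *Gpr183* (0.995) for *Cd79b*, and *Ccpg1* (0.995) and *Lzts2* (0.992) for *Cd81*.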

How the data were processed

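Poly(A) RNA of 15 libraries was prepared with a stranded kit and sequenced as 50 bp paired-end reads. Reads were mapped by the authors to mm9 with TopHat2 and counted over exons of Entrez genes with GenomicRanges 1.22.4, with strand use not given in the sources used here. The authors deposited RPM values (reads per 1000000 reads counted per library) with gene lengths, in a table named for RPKM. From the RPM steps whole reads were recovered (at least 99.95% of values within 0.05 of a whole read). Genes without a symbol, 92 in number, held at most 0.0905% of reads and were left out.

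RPKM was computed, and the 11299 genes that reached an RPKM of 1 in 3 or more of the 15 columns entered a limma fit (version 3.58.1, R 4.3.3) on log2(RPKM + 0.25), with a trend and all 14 libraries (9 residual degrees of freedom). All p-values are two-sided and adjusted by Benjamini-Hochberg over all genes, and an adjusted p under 0.05 is a call. Fold changes on this scale understate those of low genes. edgeR 4.0.16 on the recovered reads (11146 genes) was an alternative. Both were run on simulated reads of independent libraries with no effect of the replicate number. That run cannot show how such an effect would move the calls. The members and lists were chosen with earlier results of these data known. Named genes of the lists are among those with the largest changes called with groups that do not overlap, up to 3 per direction, and the 2 nearest genes per member. The tetraspanins *Cd37*, *Cd53* and *Cd82* were added after their values were seen. The replicate numbers may pair the samples, and the main fit does not use such a pairing. Deviations from group means correlated with r of 0.158 to 0.713 for every pair with the same number, and of -0.603 to 0.370 for different numbers. These ranges overlap, and with group means taken out they are not independent, so they do not settle the pairing. Values with the replicate number as a block are given where they change a call. Some other genes of the lists are not reported here. Coordinates are 1-based.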

Additional observations from a re-analysis of the deposited data

How the results depend on the processing

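Fits differed in pseudocount (1 or 0.05), filter (no filter with 18752 genes, or an RPKM of at least 3 with 9887), scaling (median, quantile), variance trend, robust fit, samples used, replicate block, count model, and each library left out in turn. Replicate 2 left out of every cultured group was added after seeing the data. Among the fitted values of single genes, 1374 kept direction and side of the threshold, 14 lost the call, 27 gained it and 25 changed sign. Every change of sign was in a value that had not been called. The cause of the changes was not tested.

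With the replicate block (merged nB library as number 1, then as number 2), GSK343 called 2417 and 1934 genes in actB in place of 1170, 2780 and 2319 in Pb in place of 1458, and 222 and 61 for the difference between cell types in place of 28. edgeR with the block gave 2895, 2980 and 287. Of the 8 genes the block called 2 in actB, 6 in Pb and 1 for the difference, and edgeR with the block 2, 6 and 2. edgeR with TMM or RLE factors called 2 in actB. Of the pathway genes the block called 31 and 29 in actB (20 without it) and 16 and 6 for the difference (5 without it), in the same order of numbering, and edgeR with the block, with the merged nB library as number 1, 34 and 14. *Cd22* between actB and nB was called with that library as number 1 (adjusted p = 0.0389) and not as number 2 (adjusted p = 0.205). Beyond these, the block changed no call of the 8 genes.

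In actB, 0 of the 8 genes were called with a pseudocount of 0.05, without a filter or with the compared groups alone, where limma called 386 genes and 7 pathway genes. The difference between cell types called 18 genes with quantile normalization, 4 with the compared groups alone, 48 with all 15 columns as deposited and 146 without replicate 2 of every cultured group. For pathway genes the difference called 3 without a filter, with median scaling and with quantile normalization, 1 with the compared groups alone and 17 without replicate 2 of every cultured group, where 5 of the 8 genes were called in Pb. Without the merged nB library, the difference called 4 genes and 1 pathway gene, and 0 of the 8 genes were called in actB.

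With each library left out in turn, GSK343 called 608 to 1363 genes in actB, 690 to 1681 in Pb and 0 to 58 for the difference. The 8 genes gave 0 to 1 calls in actB and 3 to 4 in Pb. Pathway genes gave 10 to 22, 17 to 39, and 0 to 9. In actB the counts were 608 and 646 without DMSO replicates 1 and 3 and 708 and 627 without GSK343 replicates 1 and 3, and in Pb 819 and 921 without DMSO replicates 1 and 3 and 741 and 690 without GSK343 replicates 1 and 3. The difference called at most 4 genes without any 1 library except actB DMSO replicate 2 (13) and the replicate 2 libraries of both GSK343 groups (36 and 58). Log2 values ranged from -0.0948 to 0.0927 for *Cd22*, from -0.319 to 0.034 for *Cd72*, from -0.0825 to 0.00568 for *Cd79b*, from -0.0724 to 0.0422 for *Cd81* and from -0.0212 to 0.0984 for *Ms4a1* in actB with GSK343, and for the difference from -0.0994 to 0.0184 for *Cd79a* and from -0.0533 to 0.038 for *Cd79b*. For *Cd81* in actB (0.00396) the value was -0.0295 with median scaling, -0.0273, -0.0292 and -0.0302 with edgeR and TMM, RLE or the block, and -0.0400 without replicate 2 of every cultured group, where *Cd22* was 0.00241 in place of -0.00451. For *Cd79b* the difference (-0.00107) was 0.0271 with median scaling and 0.0244, 0.027 and 0.0217 with edgeR and TMM, RLE or the block. The log2 difference of the *Cd79b* to *Cd79a* ratio from nB was -0.393 and -0.268 for Pb without the merged nB library or without nB replicate 3 (-0.331 with both), and -0.0886 and 0.0355 for actB (-0.0265 with both).

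With 2 or 3 libraries a group, differences within the intervals given could not be shown, and the nB group rests on 2 libraries. *Fcer2a* in Pb with GSK343 rested on as few as 74 reads.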
